A study of Mus musculus with 6 samples.

Results

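The genes described here are 10 genes of the salt- and acid-handling cells of the distal nephron, taken by their symbol from a table of 19176 gene rows, and all 10 were in the table on 1 row each. They are the subunits of the epithelial sodium channel ENaC (Scnn1a, Scnn1b and Scnn1g), the genes that let aldosterone act on it (Nr3c2, Hsd11b2 and Sgk1), and genes of the intercalated cell (Foxi1, Slc4a1, Slc4a9 and Slc26a4). The RNA came from the renal cortex of wild-type C57BL/6J mice, young adult males per the study's methods, 14 days after unilateral renal ischemia-reperfusion injury (UIRI), in which the left renal pedicle is clamped and released. The 3 UIRI mice received daily intraperitoneal vehicle, and the 3 UIRI + BA mice received BA at 1 mg/kg body weight per day for the same 14 days. BA is bruceine A, a quassinoid of the plant Brucea javanica, which the labels spell brucine A. All 6 mice shared the injury and, per the methods, lost the right kidney on the day before tissue was taken. There was no sham library here, so each comparison is between injured kidneys with and without BA. The cortex was sequenced whole, as a mixture of tubular and interstitial cells, with polyadenylated RNA in stranded libraries.

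In the collecting duct and connecting tubule, principal cells take up sodium through ENaC, which is built from an alpha, a beta and a gamma subunit. Aldosterone binds the mineralocorticoid receptor, and 11beta-hydroxysteroid dehydrogenase type 2 inactivates glucocorticoids that would otherwise occupy the same receptor. The kinase SGK1 is induced by the receptor and slows the removal of ENaC from the membrane. Intercalated cells sit between the principal cells and move acid or base. Type A cells secrete protons and return bicarbonate to the blood through the anion exchanger AE1, whereas type B cells secrete bicarbonate through pendrin. The forkhead factor FOXI1 is required for intercalated cell identity.

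The libraries held between 16510720 and 38124164 reads, with UIRI replicate 3 the deepest, at 2.04 times the median depth of the rest. Values below are normalized read counts, that is, reads of a gene divided by the size factor of its library, and fold changes are on the scale of log2(value + 1). P-values are from limma, adjusted by Benjamini-Hochberg over all 19176 rows, with adjusted p below 0.05 as the threshold. The proximal tubule list was detected in every library (18 of 18 genes). The marker lists of the principal cell (28 of 28) and the intercalated cell (35 of 35) were complete as well. So were those of the inner medulla and the urothelium (10 of 10 each). Complete lists therefore do not tell the cortex from other parts of the kidney. In these bulk libraries, fewer cells of a type and less RNA per cell cannot be told apart.

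Of the 10 sodium channel and collecting duct genes, 0 passed the adjusted threshold between UIRI and UIRI + BA. The pendrin gene Slc26a4 had the largest difference, with a mean of 472.7 ± 123.4 (SD, n = 3) in UIRI + BA and 323.7 ± 67.5 (SD, n = 3) in UIRI, a ratio of 1.46. By log2 fold change Scnn1a came next, at 712.8 ± 121.0 against 570.5 ± 66.4. The log2 fold change was above 0 for 9 of the 10 genes, with Slc4a9 as the exception, although Sgk1, counted among the 9, was below 0 after quantile or upper quartile scaling. The groups overlapped for every one of the 10. UIRI + BA replicates 1 and 2 were above all UIRI libraries for 6 of the 10 genes, against 11.7% of all rows. That count sets replicate 3 apart after its values were seen, so it is a description with no test. UIRI + BA replicate 3 was the lowest of its own group for 9 of the 10, against 31.0% of all rows.

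**Figure D1:**
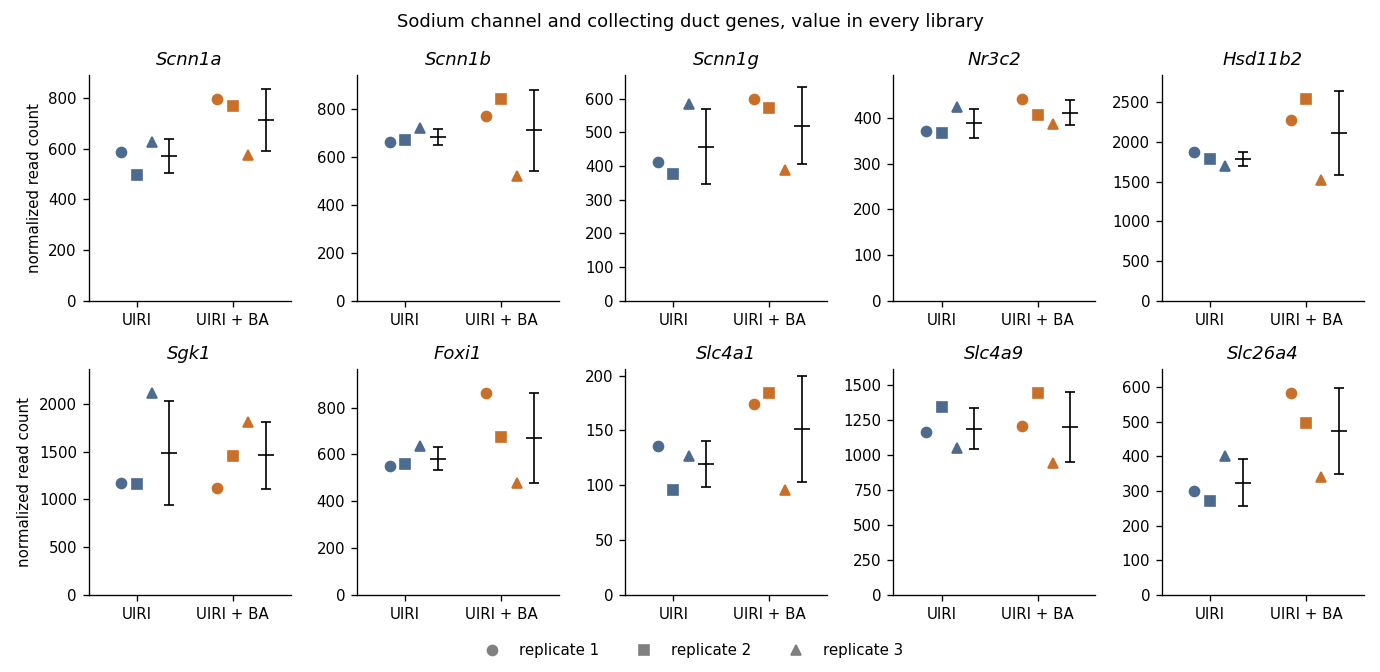
Normalized read count (y axis, from 0) of each of the 10 genes in the 3 UIRI (blue) and 3 UIRI + BA (orange) libraries, with circles, squares and triangles for replicates 1, 2 and 3 and bars for mean ± SD. The UIRI + BA triangle is the lowest orange point in every panel except that of Sgk1, and the groups overlap in all 10 panels.

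Against the whole table, 0 of the 10 genes passed the adjusted threshold and 0.0% of all rows did (0 rows, with 1971 at an unadjusted p below 0.05, while DESeq2 on the recovered reads called 213 genes and edgeR 0). At an unadjusted p below 0.05, 1 of the 10 was higher and 0 were lower in UIRI + BA, where 5.67% of all rows were higher and 10.3% passed in either direction. The median log2 fold change of the 10 was 0.17, and that of all rows was -0.0053. A log2 fold change above 0 was found in 48.9% of all rows. Groups that did not overlap were found for 0 of the 10 and for 14.4% of all rows. The exact two-sided permutation test, which cannot give a p below 0.1 with 3 libraries a group, gave p-values of 0.2 to 1 over the 10 genes.

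ENaC was described first, by subunit. Scnn1a encodes the alpha subunit, which the channel needs to reach the membrane in quantity, and lies on chr6:125320659-125344943 on the plus strand (GRCm38, GENCODE M21). Its normalized counts were 588.0, 497.1 and 626.5 in the UIRI mice against 795.5, 768.9 and 573.9 in the UIRI + BA mice. UIRI + BA replicates 1 and 2 were above every UIRI library, and replicate 3 lay between UIRI replicates 2 and 1. The log2 fold change of Scnn1a was 0.31 (SE 0.14, 95% interval -0.0061 to 0.631), with a limma unadjusted p = 0.0537, an adjusted p = 0.494 and an exact permutation p = 0.3.

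Scnn1b, the beta subunit gene, lies on chr7:121865038-121918514, plus strand. It read 660.5, 670.4 and 722.3 in the UIRI mice against 771.7, 841.1 and 520.7 in the UIRI + BA mice. The 3 UIRI libraries were close together, and UIRI + BA held both the highest and the lowest value of the 6. The SD was 33.2 in UIRI and 168.6 in UIRI + BA, and the log2 fold change of 0.027 (SE 0.16) had a 95% interval from -0.338 to 0.391.

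Scnn1g, which encodes the gamma subunit, is a neighbour of Scnn1b on chromosome 7, at chr7:121734479-121768475 on the same strand. Its values were 411.2, 376.8 and 585.4 in the UIRI mice against 598.8, 570.8 and 388.2 in the UIRI + BA mice. UIRI replicate 3 stood with UIRI + BA replicates 1 and 2, and UIRI + BA replicate 3 with UIRI replicates 1 and 2. The log2 fold change was 0.18 (SE 0.20, adjusted p = 0.751).

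Within a library, the alpha and beta subunits were also compared with each other. The log2 difference of Scnn1a from Scnn1b was -0.17, -0.43 and -0.21 in the UIRI libraries and 0.044, -0.13 and 0.14 in the UIRI + BA libraries. The groups did not overlap, and the means of this difference were 0.29 apart. That pair is 1 of 10 pairs of genes looked at with their values in view, so the difference is a description with no test. The differences of Scnn1a from Scnn1g and of Scnn1g from Scnn1b overlapped between the groups.

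Of the genes that connect aldosterone to the channel, Nr3c2, the mineralocorticoid receptor gene, varied least over the 6 libraries together. Within UIRI alone, Hsd11b2 had the smaller coefficient of variation (4.91%, against 8.16% for Nr3c2). Nr3c2 lies on chr8:76899442-77245012, plus strand, and shares 247 exon bases with Gm10649 on the opposite strand. The strand setting of the counting is not given in the sources used here. Whether reads of the pair were told apart in that stretch, 247 of the 6474 exon bases of Nr3c2, is therefore not known. Its values were 371.6, 367.8 and 424.4 in the UIRI mice against 441.0, 407.1 and 386.1 in the UIRI + BA mice. All 6 libraries lay in a narrow range and the groups overlapped. For Nr3c2, the log2 fold change was 0.085 (SE 0.10, 95% interval -0.146 to 0.317, adjusted p = 0.770).

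Hsd11b2, the gene of the glucocorticoid-inactivating enzyme, lies on chr8:105518755-105523988, plus strand. It read 1876, 1788 and 1700 in the UIRI mice against 2282, 2540 and 1525 in the UIRI + BA mice. Here too the first and second UIRI + BA libraries were above all of UIRI and the third was the lowest of the 6. The coefficient of variation was 4.91% in UIRI and 25.0% in UIRI + BA, and the log2 fold change was 0.21 (SE 0.16, adjusted p = 0.658).

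Sgk1 encodes the kinase that retains ENaC at the membrane, and lies on chr10:21882184-21999903, plus strand. Of the 10 genes it is the 1 whose values in UIRI + BA replicate 3 were the highest of that group. The counts were 1171, 1165 and 2116 in the UIRI mice against 1120, 1451 and 1814 in the UIRI + BA mice. In both groups the library numbered 3 was the highest. The groups overlapped, with the highest of the values in UIRI and the lowest in UIRI + BA. The log2 fold change was 0.0096 (SE 0.24), with a 95% interval from -0.534 to 0.553.

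RefSeq (GRCm38.p6) gave 11 promoter windows for 6 of the 10 genes, 6 of them for Sgk1. The 250 bases before each start were searched on both strands. The full steroid receptor palindrome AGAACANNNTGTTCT was found in 3 of the 32851 windows of all genes (0.00913%), and 1 of those 3 belonged to Sgk1, 189 bases before the start. Its arm AGAACA, which the palindrome contains, was present in 16.1% of all windows, among them windows of Sgk1 and Slc26a4. The stretch with the Sgk1 palindrome is shown because these letters are the consensus that mineralocorticoid and glucocorticoid receptors recognize. It is chr10:21993676-21993735, plus strand, outside annotated exons, with the palindrome in capitals.
Sgk1: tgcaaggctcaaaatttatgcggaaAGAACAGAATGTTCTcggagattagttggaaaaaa
A match of letters is a description, and binding was not measured in these libraries. The values of Sgk1 beside it are those given above, with groups that overlapped.

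Among the intercalated cell genes, Foxi1, on chr11:34204338-34208089 (minus strand), encodes the forkhead factor of the lineage. Its counts were 550.6, 559.0 and 637.5 in the UIRI mice against 861.9, 675.2 and 475.8 in the UIRI + BA mice. The UIRI + BA libraries ran from the highest to the lowest of the 6, on both sides of the UIRI libraries. The coefficient of variation of Foxi1 was 8.23% in UIRI and 28.8% in UIRI + BA, and its log2 fold change was 0.17 (SE 0.19, adjusted p = 0.755).

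Slc4a1 encodes AE1, the basolateral chloride-bicarbonate exchanger of type A cells and also of red blood cells, on chr11:102348824-102366203, minus strand. It was the least covered of the 10, with 85 to 232 reads a library. The values were 135.9, 95.6 and 127.1 in the UIRI mice against 174.1, 184.2 and 96.0 in the UIRI + BA mice. UIRI + BA replicate 3 equalled the lowest UIRI library to within 1 count, and the other two were above all UIRI libraries. The log2 fold change was 0.30 (SE 0.25, 95% interval -0.273 to 0.868, adjusted p = 0.684).

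Slc4a9 encodes the anion exchanger AE4 of type B cells and lies on chromosome 18. It read 1165, 1342 and 1051 in the UIRI mice against 1209, 1441 and 941.2 in the UIRI + BA mice. The UIRI + BA libraries reached beyond the UIRI libraries on both sides, with UIRI + BA replicate 2 highest and replicate 3 lowest. The means were 1186 ± 146.6 and 1197 ± 250.1 (SD, n = 3 each), and the 95% interval of the log2 fold change ran from -0.345 to 0.343.

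Slc26a4 encodes pendrin, the apical chloride-bicarbonate exchanger of type B cells, on chr12:31519827-31559969, minus strand. The counts were 300.2, 271.1 and 399.8 in the UIRI mice against 582.5, 496.5 and 339.1 in the UIRI + BA mice. The first and second UIRI + BA libraries were above all of UIRI, whereas the third was below UIRI replicate 3. Slc26a4 had a log2 fold change of 0.53 (SE 0.21, 95% interval 0.061 to 0.998), with a limma unadjusted p = 0.0308 and an adjusted p = 0.452, and it ranked 1307 of the 19176 rows by p. The exact permutation test of this gene alone gave p = 0.2.

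The promoter of Slc26a4 is shown since it belongs to the gene with the largest difference. It is the 250 bases before the RefSeq start, chr12:31559985-31560234 on the minus strand, and the capitals mark the TATA box letters TATAAA, 31 bases before the start.
Slc26a4: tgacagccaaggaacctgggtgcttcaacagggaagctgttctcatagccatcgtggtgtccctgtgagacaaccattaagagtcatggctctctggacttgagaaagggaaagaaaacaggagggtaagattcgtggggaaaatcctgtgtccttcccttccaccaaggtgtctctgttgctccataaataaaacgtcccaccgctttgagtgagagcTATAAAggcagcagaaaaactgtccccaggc
The letters TATAAA were present in 12.4% of all windows, including those of Slc26a4 and Sgk1. The forkhead motifs GTAAACA and GTAAATA were present in 3.17% and 2.73% of all windows, and in none of the 11 windows of these genes, which says only that those letters are not in these windows.

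The type B exchanger and the lineage factor were compared within libraries as well. The log2 difference of Slc26a4 from Foxi1 was -0.87, -1.04 and -0.67 in the UIRI mice against -0.56, -0.44 and -0.49 in the UIRI + BA mice. Each UIRI + BA library was above each UIRI library, UIRI + BA replicate 3 included, and the group means were 0.36 apart. This is the other of the 10 pairs in which the groups did not overlap, again with no test. Groups did not overlap in 14.4% of all single rows, and no such count was made over all pairs of genes. The differences of Slc4a1 and Slc4a9 from Foxi1, and those of Slc26a4 from Slc4a1 and Slc4a9, overlapped.

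Per kilobase of merged exons, Hsd11b2 had the highest level of the 10 in both groups, at 972 ± 47.7 normalized counts per kilobase in UIRI and 1150 ± 287 in UIRI + BA (SD, n = 3). Sgk1 (303 ± 112 per kilobase in UIRI), Scnn1b (260 ± 12.6) and Foxi1 (247 ± 20.3) followed and did not differ beyond their spread. Slc4a9 was next at 185 ± 22.9 per kilobase in UIRI, below each UIRI value of Foxi1, but it overlapped Foxi1 in UIRI + BA. Scnn1g (153 ± 37.4) and Scnn1a (138 ± 16.1) lay within the spread of their neighbours, and every UIRI library gave the beta subunit a higher level per kilobase than the alpha and gamma subunits. Slc26a4 stood at 104 ± 21.7 per kilobase in UIRI and 152 ± 39.7 in UIRI + BA. The lowest levels per kilobase were those of Nr3c2 (59.9 ± 4.89 in UIRI) and Slc4a1 (24.4 ± 4.33), each apart from its neighbours in all libraries.

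**Figure D2:**
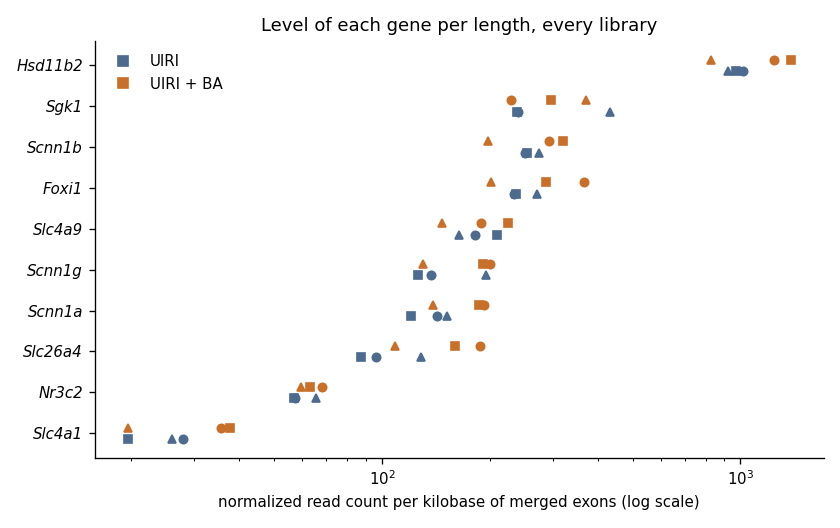
Level of each gene in normalized read counts per kilobase of merged exons (x axis, log scale), with 1 point a library in blue for UIRI and orange for UIRI + BA, and circles, squares and triangles for replicates 1, 2 and 3. Hsd11b2 stands above the others and Nr3c2 and Slc4a1 below, while the 7 genes between them overlap with their neighbours.

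UIRI + BA replicate 3 was the lowest library of its group for 9 of the 10 genes, against 31.0% of all rows, with Sgk1 as the exception. It was the lowest of all 6 libraries for Scnn1b, Hsd11b2, Slc4a9 and Foxi1, 4 of the 10, against 14.8% of all rows. Its distance below the mean of the other two UIRI + BA libraries, on the log2 scale, ran from -0.13 for Nr3c2 to -0.89 for Slc4a1 among those 9, whereas Sgk1 was 0.51 above. UIRI replicate 3 was the highest of its group for 7 of the 10, against 41.0% of all rows.

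With UIRI + BA replicate 3 left out, 6 of the 10 reached an unadjusted p below 0.05, all higher in UIRI + BA (Scnn1a, Scnn1b, Hsd11b2, Slc4a1, Slc26a4 and Foxi1), against 4.06% of all rows, and 0 passed the adjusted threshold. They are the 6 genes with both other UIRI + BA libraries above all of UIRI, which is the same pattern seen again. Without UIRI replicate 3 the count was 2 (Scnn1a and Slc26a4, against 13.7% of all rows), and 0 without UIRI replicate 1 (2.61% of all rows) or 2 (3.71%) or UIRI + BA replicate 1 (3.9%) or 2 (5.5%). DESeq2 with all libraries gave 2 of the 10, Slc26a4 and Scnn1a, where 4.47% of all rows were higher, and 0 past its adjusted threshold, where 1.49% of rows passed. With the replicates numbered 3 of both groups left out together, which was chosen after seeing the data, 7 of the 10 were higher at an unadjusted p below 0.05 (12.4% of all rows) and 4 passed the adjusted threshold in limma (2.9% of all rows). That fit leaves 2 libraries a group, picked with these values in view, and supports nothing here. The log2 fold change of Slc26a4 stayed between 0.36 and 0.75 over these 6 fits, and that of Scnn1a between 0.22 and 0.46. Hsd11b2 ran from 0.062 to 0.43, Slc4a1 from 0.13 to 0.60, Scnn1g from 0.056 to 0.38 and Nr3c2 from 0.034 to 0.15. The sign turned with a library left out for Scnn1b (-0.11 to 0.24), Foxi1 (-0.036 to 0.39), Sgk1 (-0.16 to 0.29) and Slc4a9 (-0.15 to 0.16).

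**Figure D3:**
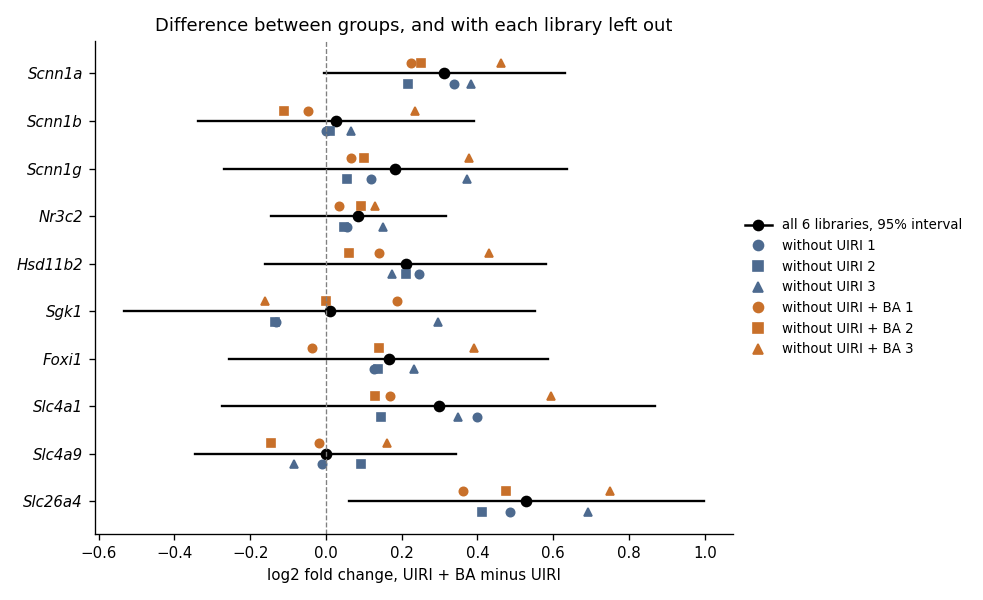
Log2 fold change of each gene, UIRI + BA minus UIRI (x axis), with all 6 libraries (black, with the 95% interval) and with each library left out (blue for a UIRI library, orange for a UIRI + BA library). The orange triangles, without UIRI + BA replicate 3, are the rightmost points for every gene except Nr3c2 and Sgk1, and Scnn1b, Sgk1, Foxi1 and Slc4a9 have points on both sides of 0.

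Markers of other segments differed between libraries at the same time. The summed level of the 18 proximal tubule genes was 81882 to 110656 in UIRI and 122534 to 185611 in UIRI + BA, highest in UIRI + BA replicate 3. Of the 18, 16 were higher at an unadjusted p below 0.05, where 5.67% of all rows were higher. The connecting and distal convoluted tubule list (11 of 12 genes in the table) had a mean log2 level of 9.89, 10.02 and 10.27 in the UIRI mice against 10.58, 10.45 and 10.02 in the UIRI + BA mice. It was high in the first and second UIRI + BA libraries and low in the third, as was the mean of the 10 genes, which was 9.15, 9.06 and 9.35 in the UIRI mice against 9.52, 9.53 and 9.06 in the UIRI + BA mice. Of those 11 genes, 4 were higher at an unadjusted p below 0.05 (5.67% of all rows), and none was at 0 in any library. The thick ascending limb list overlapped between the groups, with summed levels of 29873 to 46639 and 36437 to 49278.

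The inner medulla list (10 genes) had summed levels of 22420 to 28717 in UIRI and 24051 to 29015 in UIRI + BA. The urothelium list (10 genes) has a sum that rests mostly on Krt20, which is on the list of injured tubules too. The urothelium list had a mean log2 level of 5.06, 4.85 and 6.40 in the UIRI mice against 3.30, 3.49 and 5.84 in the UIRI + BA mice. It was highest in the library numbered 3 of each group, and Upk2 and Upk3a were at 0 in 1 or more UIRI + BA libraries. The leukocyte list was lowest in UIRI + BA replicate 3, with summed levels of 76629 to 106245 in UIRI and 72521 to 85458 in UIRI + BA. The fibroblast and myofibroblast list was lower in UIRI + BA for 12 of its 12 genes, where 9793 of all 19176 rows were lower. Of the 12, 7 were lower at an unadjusted p below 0.05, where 4.61% of all rows were. The summed levels of that list, 127668 to 146334 in UIRI and 92626 to 116264 in UIRI + BA, did not overlap. At an unadjusted p below 0.05, 0 of 8 endothelial genes were higher or lower, where 10.3% of all rows passed in either direction. Of 12 genes of injured tubules 4 were higher and 3 lower, where 5.67% of all rows were higher and 4.61% lower. No gene of these lists other than Upk2 and Upk3a was at 0 in a library. The part of these lists, and of the depth of UIRI replicate 3, in the values of the 10 genes was not tested.

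**Figure D4:**
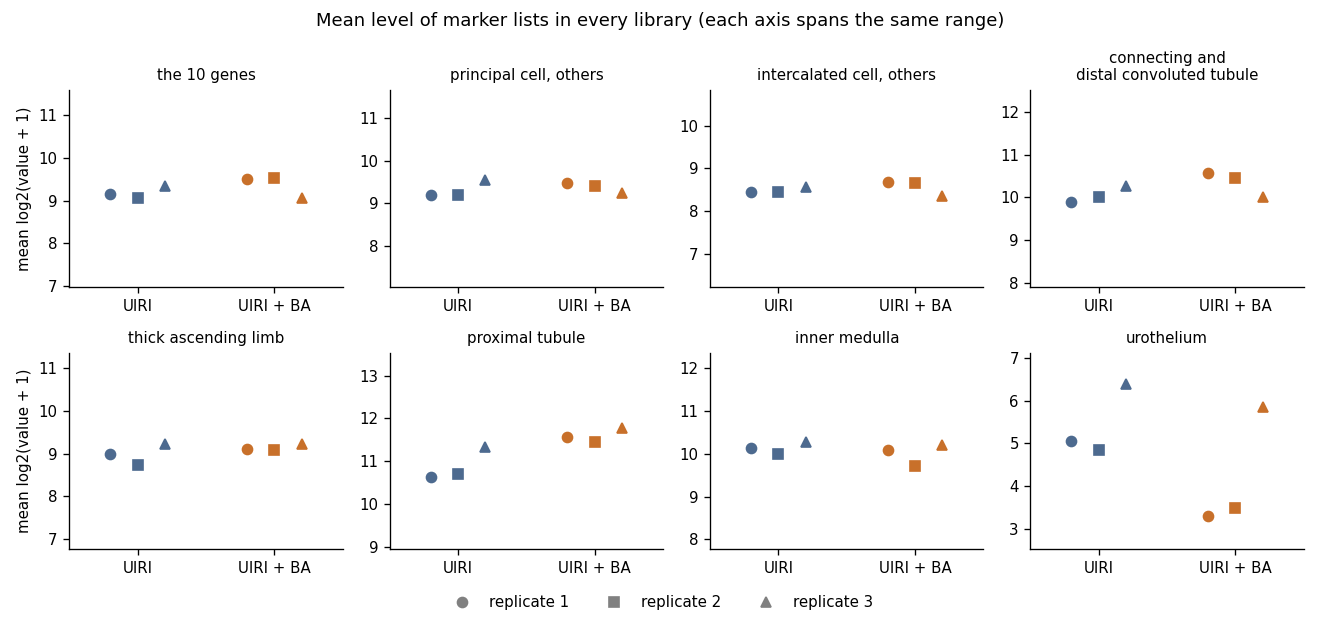
Mean of log2(value + 1) over the genes of 8 lists (y axes, each spanning the same number of log2 units) in the 3 UIRI (blue) and 3 UIRI + BA (orange) libraries, with circles, squares and triangles for replicates 1, 2 and 3. The 10 genes and the connecting and distal convoluted tubule list are low in UIRI + BA replicate 3 (9.06 and 10.02), where the proximal tubule list is highest (11.78).

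The other genes of each cell type were described from lists, whose genes are not replicates of a condition. No gene of the 4 lists below passed the adjusted threshold. Of the 28 principal cell genes, 2 were higher and 2 lower at an unadjusted p below 0.05 (4.61% of all rows were lower), and their median log2 fold change was 0.039, or 0.0075 for the 23 that are not among the 10. Prss8, the channel-activating protease prostasin, read 1199, 1272 and 1262 in the UIRI mice against 1484, 1579 and 1599 in the UIRI + BA mice. The groups did not overlap, and the log2 fold change of Prss8 was 0.32 (SE 0.07, adjusted p = 0.253). Kcnj16, a basolateral potassium channel subunit, read 5209, 5099 and 6315 against 7366, 6716 and 7189, also without overlap (log2 fold change 0.36, adjusted p = 0.301). In neither gene was UIRI + BA replicate 3 the lowest of its group, and which cells made their RNA was not tested.

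The lower principal cell genes at that level were Krt18, a keratin of simple epithelia (log2 fold change -0.39, adjusted p = 0.249), and Apela, which encodes a peptide ligand of the apelin receptor (log2 fold change -0.47, adjusted p = 0.368). Both had groups that did not overlap. Krt18 and Krt8 are on the list of injured tubules too, so Krt18 is counted among the lower genes of both lists. Aqp2, the vasopressin-regulated water channel that defines principal cells, read 159.7, 209.2 and 427.7 in the UIRI mice against 404.6, 399.5 and 296.3 in the UIRI + BA mice, and was named after its values were seen. Its groups overlapped, with UIRI replicate 3 the highest of the 6. Leaving out UIRI replicate 3 took the principal cell count to 9 higher and 2 lower, while the count over all rows went from 1971 to 4838 and 13.7% of all rows were higher. Leaving out UIRI + BA replicate 3 gave 7 higher and 2 lower, where 4.06% of all rows were higher. The count stayed at 2 higher and 2 lower without UIRI replicate 1, UIRI + BA replicate 1 or UIRI + BA replicate 2. It was 2 higher and 3 lower without UIRI replicate 2.

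Of the 35 intercalated cell genes, 3 were higher and 2 lower at an unadjusted p below 0.05, near the 5.67% and 4.61% of all rows, with a median log2 fold change of 0.093. UIRI + BA replicate 3 was the lowest of the 6 libraries for 17 of the 35, against 14.8% of all rows. The same held for 8 of the 28 principal cell genes, 10 of the 12 leukocyte genes and 0 of the 18 proximal tubule genes. Beside Slc26a4, the higher ones were Atp6v0a4 and Car12. Atp6v0a4, a subunit of the proton pump found in intercalated cells, read 1272, 1156 and 1663 in the UIRI mice against 2176, 1749 and 1624 in the UIRI + BA mice (log2 fold change 0.45, adjusted p = 0.395). Car12, a membrane carbonic anhydrase, had a log2 fold change of 0.40 (adjusted p = 0.432). In both, UIRI replicate 3 was above the lowest UIRI + BA library, so the groups overlapped.

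The lower intercalated cell genes were P2ry14, a receptor for UDP-sugars (log2 fold change -0.31, adjusted p = 0.425), and Atp6v0d2, another proton pump subunit (log2 fold change -0.20, adjusted p = 0.484). Their groups did not overlap. Genes of the same pump therefore stood on both sides, and of 15 pump subunits that are not particular to intercalated cells 1 was higher and 0 were lower at that level (Atp6v1c1, log2 fold change 0.25, adjusted p = 0.418). For the intercalated list, 1 gene was higher and 0 lower without UIRI replicate 1, where 2.61% of all rows were higher. The counts were 0 and 2 without UIRI replicate 2 (3.71%), and 5 and 1 without UIRI replicate 3 (13.7%). They were 0 and 1 without UIRI + BA replicate 1 (3.9%), and 3 and 0 without UIRI + BA replicate 2 (5.5%). Without UIRI + BA replicate 3 they were 12 and 1, where 4.06% of all rows were higher. The count of 1 for the other pump subunits was 3 without UIRI replicate 3 and 0 without UIRI replicate 1 or 2 or UIRI + BA replicate 2 or 3.

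The list of the aldosterone and sodium channel pathway held 35 genes, none of them among the 10, and included regulators of ENaC, its proteases and genes induced by corticosteroid receptors. Prss8, Fxyd4, Kcnj1 and Kcnma1 are on the principal cell list too, so Prss8 is counted in both. Klk1 and Wnk4 are also on the connecting and distal convoluted tubule list, and Klk1 is among the higher genes of both. Of the 35, 11 were higher and 0 lower in UIRI + BA at an unadjusted p below 0.05, where 5.67% of all rows were higher. The groups did not overlap for 8 of the 35, all higher (7.45% of all rows). The median log2 fold change was 0.16, and 28 of the 35 were above 0. The 11 higher genes became 6 without UIRI replicate 1 (2.61% of all rows), 6 without UIRI replicate 2 (3.71%), 21 without UIRI replicate 3 (13.7%) and 5 when UIRI + BA replicate 3 was left out (4.06%). The fits that left out UIRI replicate 2 or UIRI + BA replicate 2 each had 1 lower gene.

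After Prss8, the smallest p in that list belonged to Klk1, tissue kallikrein, a protease of the connecting tubule. Klk1 read 6911, 6878 and 7909 in the UIRI mice against 10219, 11450 and 8549 in the UIRI + BA mice, with a log2 fold change of 0.47 (SE 0.11, adjusted p = 0.263). All UIRI + BA libraries were above all UIRI libraries, replicate 3 by the least. Zbtb16, a transcription factor induced by glucocorticoids, read 43.1, 51.7 and 61.9 against 200.4, 88.3 and 93.9. UIRI + BA replicate 1 was far above the rest, and the log2 fold change of Zbtb16 was 1.18 (SE 0.30, adjusted p = 0.291).

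Fkbp5, a co-chaperone of steroid receptors that is itself induced by them, read 1310, 1487 and 1365 in the UIRI mice against 2013, 1808 and 1563 in the UIRI + BA mice (log2 fold change 0.37, adjusted p = 0.322). Sgk2, a kinase related to Sgk1, read 376.1, 435.3 and 632.0 against 689.0, 670.9 and 782.6 (log2 fold change 0.60, adjusted p = 0.332). Neither had groups that overlapped, in contrast to Sgk1 itself, whose values are given above, although the difference between Sgk1 and Sgk2 was not tested. The remaining 6 genes of the 11 were Usp2, Atp1b1, Fxyd2, Fkbp4, Klf9 and Edn1, with log2 fold changes from 0.17 (Fkbp4) to 0.38 (Edn1). Several of the 35 are also made outside the collecting duct, and the proximal tubule list, given above, was higher in the same libraries.

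**Figure D5:**
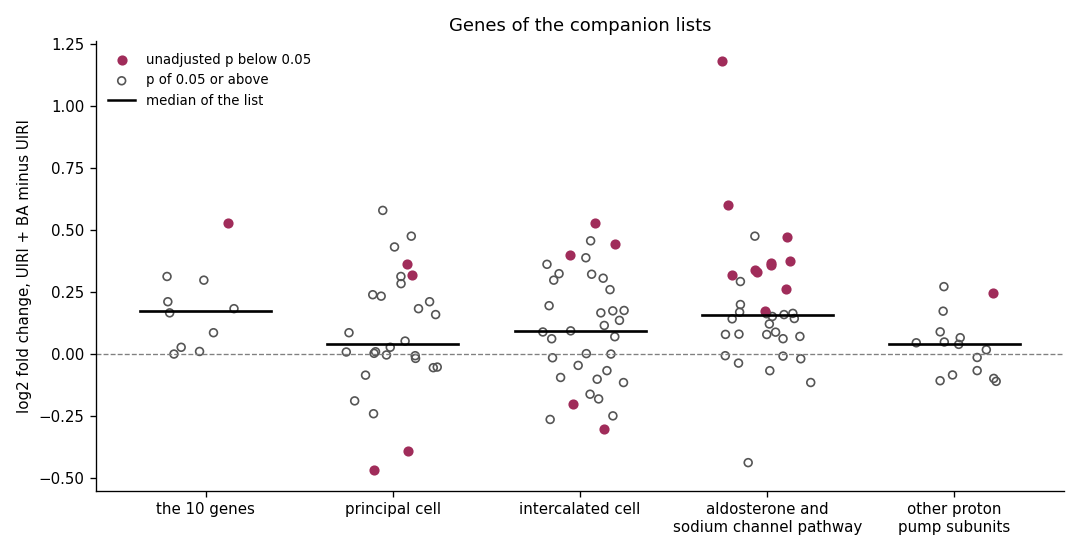
Log2 fold change, UIRI + BA minus UIRI (y axis), of each of the 10 genes and of each gene of the 4 lists, with filled points for an unadjusted p below 0.05 and a line at the median. In the aldosterone and sodium channel pathway list 11 of 35 points are filled and all lie above 0, whereas the principal cell list has 2 filled points on each side.

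The genes whose profile over the 6 libraries was most like that of the ENaC subunits were sought among 13929 genes with a mean of at least 50 normalized counts, by the root mean square difference of centred log2 values. They were Utp14b (0.0291), Klf8 (0.0545) and Gm45902 (0.0705). Utp14b, for example, read 102.0, 96.7 and 120.5 in the UIRI mice against 137.8, 133.5 and 96.0 in the UIRI + BA mice, which repeats the low value of UIRI + BA replicate 3. For the intercalated cell genes, Hmx2 (0.0625), Utp14b (0.0816) and Slc16a5 (0.0826) came closest. Hmx2, a homeobox gene that is itself on the intercalated cell list, read 43.1, 42.7 and 46.0 in the UIRI mice against 65.1, 66.8 and 38.6 in the UIRI + BA mice.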

How the data were processed

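Renal cortex RNA of 3 UIRI and 3 UIRI + BA mice was measured by RNA-seq, with separate animals as replicates. The authors aligned reads with HISAT2, counted them with FeatureCounts and deposited a signal per gene, that is, read counts divided by 1 size factor per library, beside 4 columns of their own comparison (fold changes and p-values), which were not used. Files of enriched terms were not used either. The genome build and the strand setting of the counting are not given in the sources used here. RNA was taken with a column kit per the labels and with TRIzol per the methods. Every value was a whole multiple of 1 step of its library (100% within 0.01 reads), so reads were recovered, 16510720 to 38124164 a library. The table holds no row under 10 reads in sum, and 0 value columns were left over.

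Groups were compared with limma 3.58.1 (R 4.3.3) on log2(value + 1) with an intensity trend and no covariate, adjusted by Benjamini-Hochberg over 19176 rows. Single genes were also tested with an exact two-sided permutation test. Alternatives were quantile, upper quartile and TMM scaling, a pseudocount of 0.1, a filter of 1 in every library, the replicate number as a block, DESeq2 1.42.0 and edgeR 4.0.16 on recovered reads, and each library left out. The script was tested on simulated data. Exon lengths and positions came from GENCODE M21 (GRCm38) by symbol, and promoters from RefSeq (GRCm38.p6). With 3 libraries a group, small differences are not detectable at this spread.

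Named genes were the 10 genes, up to 5 genes with the smallest p below 0.05 and a mean of at least 10 from each list, and the 3 nearest profiles. The 10 genes, the lists and the motifs were chosen with earlier results of these data known. Replicates of a group were compared by chi-square of their reads, and no pair agreed within sampling noise (5.17 to 29.9 per degree of freedom).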

Additional observations from a re-analysis of the deposited data

How the results depend on the processing

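Of 150 alternative fold changes of the 10 genes, 131 kept their direction and their side of the adjusted threshold. The sign turned for Sgk1 with quantile normalization (-0.016), upper quartile scaling (-0.010), DESeq2 (-0.023) and edgeR (-0.028), and without one library (-0.16 to 0.29). It turned for Slc4a9 with DESeq2 (0.015) and edgeR (0.014) and without one library (-0.15 to 0.16), and without one library for Scnn1b (-0.11 to 0.24) and Foxi1 (-0.036 to 0.39). The cause was not tested. With 1 library left out, genes at an adjusted p below 0.05 numbered 0 to 962 and at an unadjusted p 808 to 4838. The corresponding unadjusted counts, both directions together, were 0 to 6 for the 10 genes, 4 to 11 for the principal cell list, 1 to 13 for the intercalated list, 5 to 21 for the aldosterone pathway and 0 to 3 for the other pump subunits.

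DESeq2 called 213 genes over the table, none of the 10, with 2 of the 10 at an unadjusted p below 0.05 (Slc26a4 and Scnn1a). With the replicate block, 6 genes passed over the table and no call among the 10 changed. Deviations of same-numbered libraries correlated at -0.24, 0.30 and 0.15, so the numbers were not taken to pair the animals. The scalings moved the median of all genes by -0.0027 to -0.020, and no direction among the 10 other than that of Sgk1 turned with them.

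An alternative chosen after seeing the data, without the replicates numbered 3 of both groups, called 557 genes over the table (4440 at an unadjusted p) and 4 of the 10 (Scnn1a, Scnn1g, Hsd11b2 and Slc26a4, of 7 at an unadjusted p). It gave 13, 15, 19 and 3 genes for the principal cell, intercalated, aldosterone and pump lists and 0.078 for Slc4a9. It leaves 2 libraries a group, chosen with these values in view, and supports nothing here.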

Other observations

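The full steroid receptor palindrome that stands before Sgk1 was found in the promoter windows of 2 other genes, Acnat2 and Gm35041, and Gm35041 had no row in the table. Acnat2, which encodes an acyltransferase that joins fatty or bile acids to amino acids, was looked at after its values were seen. It read 132.6, 155.2 and 194.4 in the UIRI mice against 332.0, 393.1 and 413.2 in the UIRI + BA mice. The groups did not overlap, and the log2 fold change of Acnat2 was 1.25, with an adjusted p of 0.225 (limma, Benjamini-Hochberg), where that of Sgk1 was 0.0096.

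Klotho (Kl), made in the distal convoluted tubule and the proximal tubule, read 1268, 1534 and 2459 in the UIRI mice against 3461, 2568 and 2409 in the UIRI + BA mice, with a log2 fold change of 0.72 (adjusted p = 0.368, limma). The groups overlapped, since UIRI replicate 3 was above UIRI + BA replicate 3. Emx1, a homeobox gene of the distal tubule list, read 117.8, 137.2 and 147.3 against 200.4, 198.2 and 146.1 (log2 fold change 0.43, adjusted p = 0.448, limma). Here too UIRI + BA replicate 3 was below UIRI replicate 3. Both genes were named after their values were seen.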
